A study of Mus musculus with 7 samples.

Results

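The 10 receptor genes Ctla4, Pdcd1, Lag3, Havcr2, Tigit, Cd96, Btla, Klrg1, Icos and Cd28 were taken by symbol from a table of 24084 genes, and all 10 were present and passed the filter on low counts that left 11376 genes for testing. Regulatory T cells (Tregs), the CD4 T cells defined by the transcription factor Foxp3, had been sorted from telogen (resting-phase) skin in 4 libraries and from skin-draining lymph node (SDLN) in 3 libraries. All mice were 6 weeks old and of the Foxp3-DTR strain, in which the diphtheria toxin receptor and a green fluorescent protein are tied to Foxp3, so the reporter allele was carried by both groups and no untreated wild-type group was included. Nothing in the labels says how many animals made a library or whether libraries came from separate animals, so p-values measure the spread between these libraries, which may be partly technical. Skin 1 is titled and sourced as skin but tagged with lymph node as its tissue; it was kept as skin.

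T cell activation is set by receptors that add to or subtract from the signal of the antigen receptor. CD28 and ICOS are costimulatory chains that recruit phosphoinositide 3-kinase, and CTLA-4 competes with CD28 for CD80 and CD86 on antigen-presenting cells. PD-1, BTLA, TIGIT, CD96 and KLRG1 carry inhibitory tyrosine motifs in their tails, while LAG-3 binds MHC class II and TIM-3 (Havcr2) binds several ligands, galectin-9 among them. Tregs are known for constitutive CTLA-4, and mice whose Tregs lack CTLA-4 develop autoimmunity. The members are not all of the immunoglobulin superfamily: KLRG1 is a C-type lectin-like receptor that binds cadherins.

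Total gene counts were 11009609 to 14785751 per library, and 3 counts stood for 0.204 to 0.276 CPM (read counts scaled to library size, with TMM factors). The skin libraries were the more variable: the median coefficient of variation over all tested genes was 0.750 in skin and 0.187 in SDLN. In skin 9690 to 12639 genes had a count, against 13408 to 13845 in SDLN. Over the tested genes, the Pearson r of log2 CPM was 0.968 to 0.986 within SDLN and 0.639 to 0.728 within skin. Between the tissues it was 0.640 to 0.728, so by this measure skin libraries were no more alike than skin and SDLN libraries. SDLN 3 was the sole library of a male pattern, with 3877 counts of the Y-linked Ddx3y against at most 2 elsewhere and 4 counts of Xist against 4653 to 11758. The T cell markers Cd3e, Cd3d, Cd3g and Cd4 and the Treg-associated markers Foxp3, Il2ra and Ikzf2 were present in every group. These 7 summed to 7732 to 9176 CPM in SDLN and 5288 to 8521 CPM in skin. Ikzf2 rose in skin (log2 fold change 1.15, edgeR adjusted p = 0.0385), and the other 6 did not pass. Cd3e, Cd3d and Cd4 were below SDLN (log2 fold change -1.07, -0.90 and -0.66) and Foxp3 above it (0.93) in every skin library. Of 15 macrophage and dendritic cell markers, 7 were tested and 2 (Lyz2 and H2-Ab1) were higher in skin, with summed levels of 328 to 517 CPM in SDLN and 679 to 8390 CPM in skin; Clec9a and Cd207 were at 0 in all libraries. Keratinocyte and fibroblast markers summed to 596 and 548 CPM in skin 3 and to at most 20.7 and 7.92 CPM in the other skin libraries. In bulk libraries, fewer cells of a type and less RNA per cell cannot be told apart.

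Upstream sequences of 4 members are shown for the AP-1 and NFAT motifs of activated T cells. RefSeq promoter sequence (GRCm38.p6, the build of the authors' mm10 alignment) was matched for 6 of the 10 members, and the 250 bases before the annotated start are printed for 3 receptors that were higher in skin and for Cd96, whose mean was lowest in skin relative to SDLN. Capitals mark the AP-1 motif TGANTCA and the NFAT core GGAAA, read on either strand (TTTCC on the other). They lie at chr1:60908775-60909024 (plus strand), chr11:46454681-46454930 (plus), chr16:43664185-43664434 (minus) and chr16:46120249-46120498 (minus). The RefSeq start used for Ctla4 lies inside the longer GENCODE span given for the gene further on, so the annotations place its start differently.
Ctla4: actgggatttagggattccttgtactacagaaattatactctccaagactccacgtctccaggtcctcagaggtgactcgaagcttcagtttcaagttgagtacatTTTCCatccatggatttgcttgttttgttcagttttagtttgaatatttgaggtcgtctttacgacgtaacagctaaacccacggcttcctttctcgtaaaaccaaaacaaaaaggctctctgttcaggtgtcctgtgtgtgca
Havcr2: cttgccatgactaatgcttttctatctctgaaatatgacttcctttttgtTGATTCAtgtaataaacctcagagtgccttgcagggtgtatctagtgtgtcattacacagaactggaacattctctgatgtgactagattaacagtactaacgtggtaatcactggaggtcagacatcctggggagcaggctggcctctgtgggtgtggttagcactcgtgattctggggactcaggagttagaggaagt
Tigit: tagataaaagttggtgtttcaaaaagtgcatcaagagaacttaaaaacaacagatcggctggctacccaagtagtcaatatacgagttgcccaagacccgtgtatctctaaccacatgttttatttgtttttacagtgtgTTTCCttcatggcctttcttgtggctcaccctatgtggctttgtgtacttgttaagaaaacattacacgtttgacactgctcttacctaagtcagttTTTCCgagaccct
Cd96: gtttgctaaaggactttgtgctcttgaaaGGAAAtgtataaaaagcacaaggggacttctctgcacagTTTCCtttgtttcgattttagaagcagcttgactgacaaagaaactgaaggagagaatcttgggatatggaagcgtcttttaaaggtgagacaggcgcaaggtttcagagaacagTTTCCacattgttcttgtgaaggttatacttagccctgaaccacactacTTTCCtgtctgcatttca
Ctla4 held 1 NFAT core, Tigit 2, Cd96 4 and Havcr2 none, and Havcr2 alone among these 4 held an AP-1 motif, 200 bases before the start. Of 32851 RefSeq promoters of the same length, 55.6% held GGAAA and 6.7% held TGANTCA, so an NFAT core is a common feature and an AP-1 motif an uncommon one. The RUNX motif TGTGGT (14% of promoters) was found once each in Havcr2, Tigit and Cd96, the TCF/LEF motif CTTTGNT (16.0%) once in Cd96, and the forkhead motif TGTTTAC (3.2%) in none of the 4. A match describes letters in a window and was not read as a binding site.

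Skin Tregs carried more transcript of 5 of the 10 receptors than SDLN Tregs: Ctla4, Icos, Tigit, Klrg1 and Havcr2. None was called lower, although Pdcd1 and Cd96 had lower values in every skin library than in any SDLN library. Over all tested genes, edgeR's quasi-likelihood test called 7.24% at an adjusted p under 0.05, 3.28% higher and 3.96% lower in skin. The receptors were listed with earlier results of these data known, so their share of calls is a description. As for lower members, edgeR called 0, while 2 (Pdcd1 and Cd96) had an unadjusted p under 0.05. DESeq2 called 2 and limma-voom called 2. Over the whole table, edgeR called 451 genes lower, DESeq2 507 and limma-voom 729. The libraries of the tissues did not overlap for 7 of the 10 members, against 26.6% of all tested genes; 5 of the 7 were higher in skin (10.1% of all tested genes) and 2 lower (16.5%). The median log2 fold change of the 10 was 1.83, beside 0.05 over all tested genes. The count of higher members rested on the small SDLN group, with 0 called without SDLN 1 or without SDLN 2 and 3 without SDLN 3. Calls fell over the whole table in the same fits. Genes higher in skin went from 373 to 39, 33 and 61 without SDLN 1, SDLN 2 and SDLN 3.

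**Figure D1:**
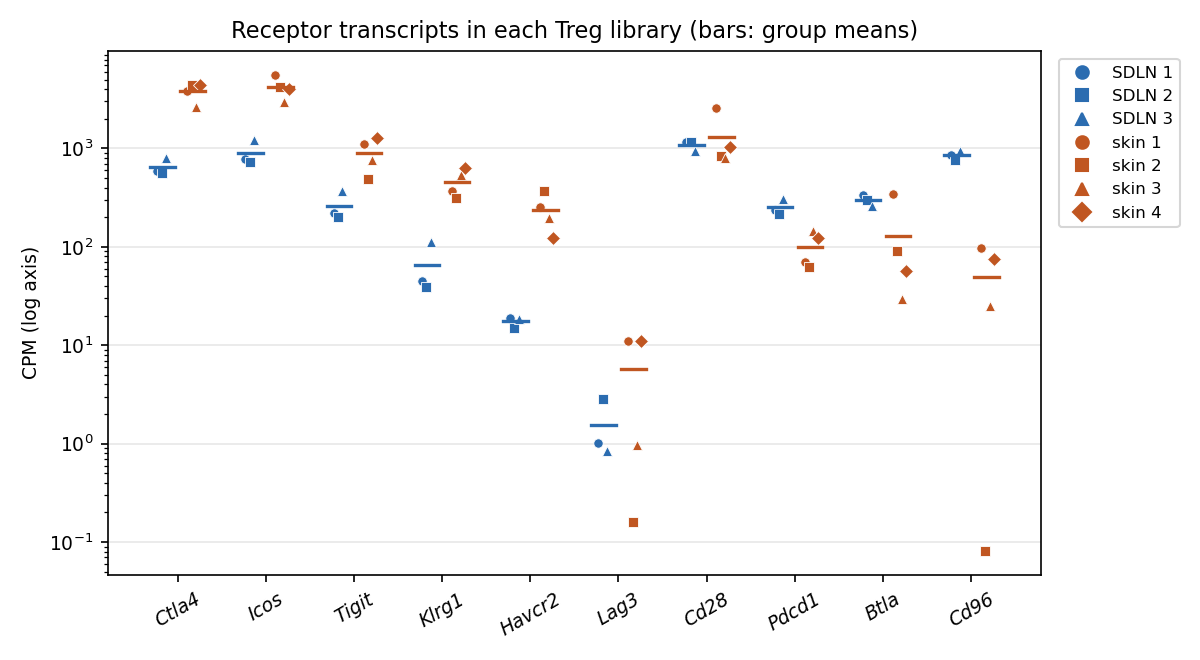
CPM of each receptor (log axis) in the 3 SDLN libraries (blue) and the 4 skin libraries (orange), one symbol per library and a bar at each group mean. Ctla4, Icos, Tigit, Klrg1 and Havcr2 sit higher in all 4 skin libraries, and Cd96 ranges from 0.0809 to 98.5 CPM in skin.

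Among the receptors of the CD28 family, Ctla4 (chromosome 1, 60887000 to 60915832, protein-coding) had the smallest adjusted p of the 10. Its level was 584, 566 and 802 CPM in SDLN 1 to 3 and 3814, 4448, 2611 and 4406 CPM in skin 1 to 4. Every skin library lay above every SDLN library, and skin 3 was the lowest of the skin. The mean rose 5.87-fold, from 651 ± 132 (SD, n = 3) to 3819.8 ± 856 CPM (SD, n = 4), with a log2 fold change of 2.55 (SE 0.28, edgeR adjusted p = 0.00501), which placed it at rank 43 of all tested genes by p. Leaving out SDLN 1 or SDLN 2 ended the call for Ctla4 (adjusted p = 0.0546 and 0.0519).

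Icos, a costimulatory receptor whose ligand is ICOSL (chromosome 1, 60977927 to 61000320), moved in the same direction as Ctla4. It stood at 784, 725 and 1216 CPM in SDLN and at 5629, 4168, 2949 and 3990.5 CPM in skin, again without overlap and with skin 3 the lowest. The rise was 4.61-fold, from 908 ± 268 (SD, n = 3) to 4184 ± 1103 CPM (SD, n = 4), with a log2 fold change of 2.20 (SE 0.31, edgeR adjusted p = 0.0116). The Icos call was lost on leaving out SDLN 1 or SDLN 2 (adjusted p = 0.0987 and 0.0859).

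Cd28, the costimulatory chain that shares CD80 and CD86 with CTLA-4 (chromosome 1, 60716800 to 60773359), did not pass the test. Its levels were 1176, 1167 and 934 CPM in SDLN and 2561, 841, 796 and 1035 CPM in skin, so the groups overlapped and skin 1 stood apart from the other skin libraries. The log2 fold change was 0.26 (edgeR adjusted p = 0.850) with a 95% interval of -0.75 to 1.27, that is 0.596- to 2.41-fold. Without skin 1 the sign turned, to -0.29 (adjusted p = 0.445). Cd28, Ctla4 and Icos are direct neighbours on the plus strand of chromosome 1, with no other protein-coding gene between them and gaps of 113.6 and 62.1 kb in GENCODE, yet Ctla4 and Icos rose while Cd28 had an interval that includes no change.

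Pdcd1, which encodes PD-1 (chromosome 1, 94038305 to 94052553), stood at 237, 218 and 309 CPM in SDLN and 70.0, 62.0, 145 and 122 CPM in skin. All 4 skin libraries were below all 3 SDLN libraries, a direction opposite to that of Ctla4. Its log2 fold change was -1.35 (SE 0.37) and did not pass in edgeR (adjusted p = 0.0741). Pdcd1 did pass with DESeq2 (adjusted p = 0.010), with limma-voom (adjusted p = 0.0395) and without skin 3 (adjusted p = 0.0382).

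Btla, an inhibitory receptor for the TNF receptor family member HVEM (chromosome 16, 45224315 to 45257670), was at 334, 299.98 and 261 CPM in SDLN and 345, 90.5, 29.3 and 56.9 CPM in skin. Skin 1 exceeded all SDLN libraries, whereas the other 3 skin libraries fell below them. The log2 fold change was -1.19 (SE 0.75, edgeR adjusted p = 0.488), and without skin 1 it was -2.34 and passed (adjusted p = 0.0317).

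**Figure D2:**
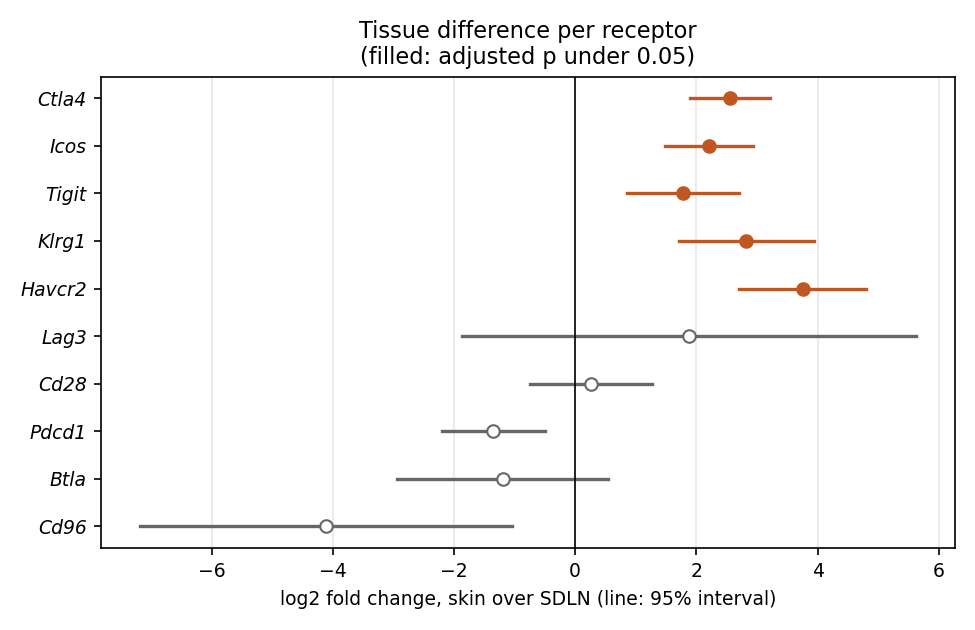
Log2 fold change of skin over SDLN for each receptor with its 95% interval from edgeR's quasi-likelihood fit; filled orange points passed an adjusted p of 0.05 and open grey points did not. Havcr2 has the largest of the called differences at 3.75, and Cd96 and Lag3 have the widest intervals.

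TIGIT and CD96 are receptors of the nectin family network that bind CD155 (Pvr) in competition with the activating receptor CD226, and their transcripts stood in opposite order in the tissues. Tigit (chromosome 16, 43648867 to 43664146) was at 219, 201 and 369 CPM in SDLN and 1099.9, 488, 762 and 1264 CPM in skin. The skin libraries spanned 2.59-fold and all lay above SDLN. It rose 3.43-fold with a log2 fold change of 1.78 (SE 0.40, edgeR adjusted p = 0.0389). This was the least firm of the calls: Tigit did not pass without any 1 of the SDLN libraries, without skin 1 or without skin 4 (adjusted p = 0.131 to 0.183 for SDLN libraries, 0.0547 and 0.0760 for skin 1 and skin 4), nor with no filter on low counts (0.0855) or a minimum mean of 5 CPM (0.0527).

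Cd96 (chromosome 16, 46035657 to 46120251) was among the most abundant of the 10 in SDLN, at 866, 764 and 935 CPM, and was at 98.5, 0.0809, 25.3 and 74.7 CPM in skin. Skin 2 held a single Cd96 read count against 287 to 1070 in the other skin libraries. The mean was 17.2-fold lower in skin, with a log2 fold change of -4.11 (SE 1.33), but Cd96 did not pass in edgeR (adjusted p = 0.130). It passed with DESeq2 (adjusted p = 0.0385), with limma-voom (log2 fold change -6.13, adjusted p = 0.0419) and without skin 2 (-3.70, adjusted p = 0.0216). Cd226, the activating counterpart, overlapped between tissues, with an SDLN mean of 90.0 ± 10.6 CPM (SD, n = 3) and a skin mean of 63.5 ± 51.9 CPM (SD, n = 4), and did not pass (log2 fold change -0.50, edgeR adjusted p = 0.763). Skin 1 held the highest Cd226 of all libraries, and without it the log2 fold change was -1.24 (adjusted p = 0.0745).

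Havcr2, the gene of TIM-3 (chromosome 11, 46454935 to 46481255), showed the largest called difference of the 10. It was at 19.1, 15.1 and 18.3 CPM in SDLN and 253, 369, 198 and 123 CPM in skin. The rise was 13.5-fold, from 17.5 ± 2.09 (SD, n = 3) to 236 ± 104 CPM (SD, n = 4), with a log2 fold change of 3.75 (SE 0.46, edgeR adjusted p = 0.00714). Havcr2 did not pass without any 1 SDLN library (adjusted p = 0.0562 to 0.0668). TIM-3 is also known from macrophages and dendritic cells, of whose 15 listed markers 2 passed as higher in skin. The summed level of the 15 was 2683, 2049, 679 and 8390 CPM in skin 1 to 4, most of it Cd74 (2183, 1505, 488 and 7055 CPM), which overlapped between tissues and did not pass (adjusted p = 0.0937). Havcr2 was lowest in skin 4, where that sum was highest, and next lowest in skin 3, where the sum was lowest. The part of these markers in the Havcr2 result was not tested.

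Klrg1, a marker of terminally differentiated effector T cells and Tregs (chromosome 6, 122270596 to 122282882), was at 44.8, 39.0 and 111 CPM in SDLN and 368, 314, 531 and 629.6 CPM in skin. SDLN 3 stood above the other SDLN libraries, and all skin libraries stood above SDLN 3. Klrg1 rose 7.09-fold, with a log2 fold change of 2.83 (SE 0.49, edgeR adjusted p = 0.0225). Without SDLN 1 or SDLN 2 its log2 fold change was 2.60 and 2.55 and did not pass (adjusted p = 0.142 and 0.117). Natural killer cells also express KLRG1. Of 8 natural killer markers, Ncr1, Gzma, Klra8 and Klre1 were at 0 throughout the skin. The 2 tested, Prf1 and Tyrobp, overlapped between tissues and did not pass, with a median log2 fold change of 2.52. The summed level of the 8 was 1.13 to 156 CPM in skin and 29.8 to 34.4 CPM in SDLN. The part of these markers in the Klrg1 result was not tested.

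Lag3, a receptor for MHC class II and fibrinogen-like protein 1 (chromosome 6, 124904361 to 124911705), was close to undetected. Its counts were 15, 41 and 11 in SDLN and 119, 2, 11 and 154 in skin, or 1.02, 2.83 and 0.850 CPM against 10.95, 0.162, 0.970 and 10.98 CPM. Skin 1 and skin 4 were high and skin 2 and skin 3 low. No difference was detected at these low and, in skin, uneven counts (log2 fold change 1.87, 95% interval -1.87 to 5.62, edgeR adjusted p = 0.649). For Lag3, limma-voom gave a log2 fold change of 0.69 (adjusted p = 0.827).

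Levels of different genes were compared per kilobase of annotated exon, because longer transcripts collect more reads. In SDLN the order by mean CPM per kilobase was Cd96 (392 ± 39.4, SD, n = 3), Tigit (286 ± 100.4), Ctla4 (279 ± 56.5), Icos (265 ± 78.2), Cd28 (178 ± 22.4), Pdcd1 (132 ± 25.1), Btla (87.8 ± 10.8), Klrg1 (45.9 ± 28.3), Havcr2 (6.43 ± 0.769) and Lag3 (0.742 ± 0.521). Neighbours in that order overlapped between libraries from Cd96 down to Icos, from Cd28 to Pdcd1 and from Btla to Klrg1. In skin the order was Ctla4 (1639 ± 368, SD, n = 4), Icos (1219.8 ± 322), Tigit (983 ± 378), Klrg1 (326 ± 103), Cd28 (214 ± 137), Havcr2 (86.6 ± 38.1), Pdcd1 (51.7 ± 20.9), Btla (38.4 ± 42.7), Cd96 (22.7 ± 20.6) and Lag3 (2.73 ± 2.85). There, the only neighbours without overlap were Tigit and Klrg1. Cd96 thus stood first of 10 in SDLN and 9th in skin, as a description of these means. These levels depend on the union of annotated exons, which may not match the isoforms present.

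The 10 receptors together summed to 1449 to 2004 CPM per kilobase in SDLN and 3484 to 5434 CPM per kilobase in skin. Ctla4 made up 16.6 ± 0.601% (SD, n = 3) of that pool in SDLN and 36.0 ± 6.76% (SD, n = 4) in skin, and Icos 15.6 ± 1.79% and 26.5 ± 3.65%. Cd96 made up 23.6 ± 2.03% in SDLN and 0.455 ± 0.366% in skin. Tigit took a like share in both tissues within its spread, 16.8 ± 2.82% and 21.2 ± 6.01%, while Pdcd1 went from 7.87 ± 0.115% to 1.2 ± 0.681% and Klrg1 from 2.62 ± 1.13% to 7.35 ± 2.84%. Shares are tied to each other, since 1 member's gain lowers the rest.

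**Figure D3:**
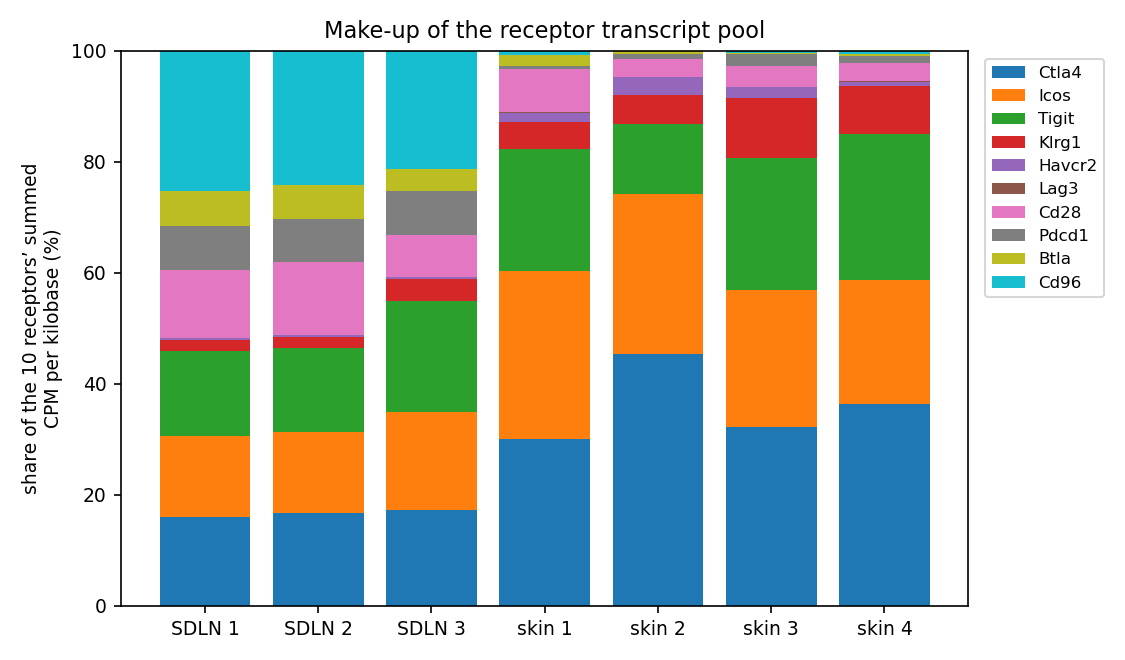
Stacked bars give each receptor's share (percent) of the summed CPM per kilobase of the 10 receptors in each library. Ctla4 takes 16.0 to 17.2% in SDLN and 30.1 to 45.4% in skin, and the Cd96 block of 21.4 to 25.3% in SDLN is at most 0.830% in skin.

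Ratios of related receptors were taken per kilobase within each library. Ctla4 to Cd28 was 1.30, 1.27 and 2.26 in SDLN and 3.91, 13.9, 8.62 and 11.2 in skin. The groups did not overlap, and skin 1, the library with the high Cd28, was the skin library nearest to SDLN. Icos to Cd28 was 1.19, 1.11 and 2.32 in SDLN and 3.92, 8.84, 6.61 and 6.88 in skin. Tigit to Cd226 was 12.6, 13.6 and 19.8 in SDLN and 41.7, 82.5, 125 and 135 in skin. The ratio of Ctla4 to Icos, by contrast, was 0.971 to 1.15 in SDLN and 0.997 to 1.63 in skin, with overlap. No test was made of these ratios, since the pairs were chosen with the results known.

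**Figure D4:**
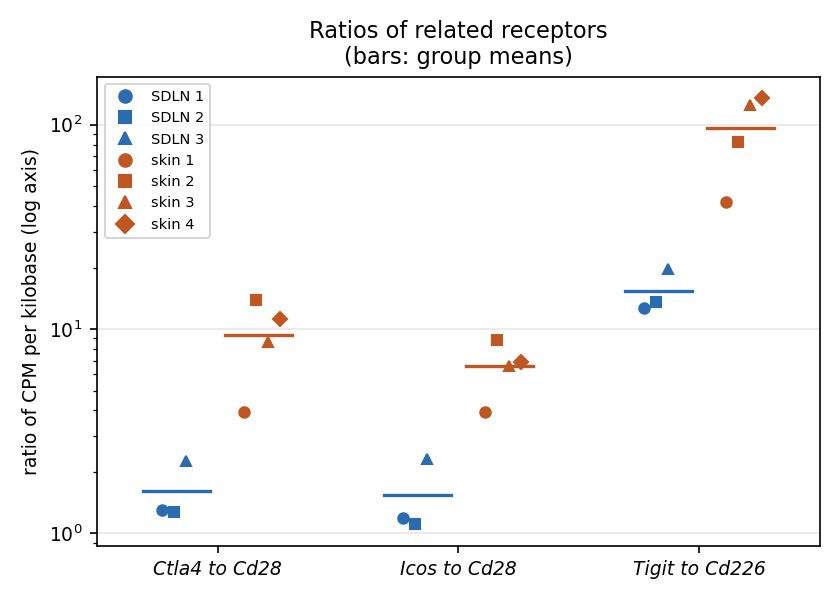
Ratio of CPM per kilobase (log axis) for 3 receptor pairs in the SDLN (blue) and skin (orange) libraries, with bars at group means. In each pair all skin libraries lie above all SDLN libraries, with skin 1 the lowest of the skin.

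Receptors also differed in how evenly they were measured in skin. The coefficient of variation over the 4 skin libraries was 0.224 for Ctla4, 0.264 for Icos, 0.316 for Klrg1, 0.384 for Tigit, 0.403 for Pdcd1, 0.440 for Havcr2 and 0.643 for Cd28, 7 of the 10 being under the skin median of 0.750. Cd96 (0.906), Lag3 (1.04) and Btla (1.11) exceeded it. In SDLN, 4 of the 10 were under the SDLN median of 0.187. Both medians run over all tested genes, whatever their level. Within tissues, SDLN 3 was the highest SDLN library for 6 members and skin 1 the highest skin library for 4, while skin 2 was the lowest for 5 and skin 3 for 4.

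Ligands were measured in the same Treg libraries and so say nothing of other cells. Of 18 listed ligand genes 14 were tested, of which 2 rose in skin, 0 fell and 12 did not pass. The share called was 14.3%, beside 7.24% of all tested genes. While edgeR called 0 ligands lower, 1 had an unadjusted p under 0.05; DESeq2 called 1 lower and limma-voom 1. Fgl2, a secreted fibrinogen-like protein described as a Treg effector, was on the list, but no receptor for it among the 10 is named here. Its level was 24.4, 39.4 and 18.2 CPM in SDLN and 799, 399, 792 and 495 CPM in skin. The log2 fold change of Fgl2 was 4.5 (SE 0.45, edgeR adjusted p = 0.00377). Lgals3, galectin-3, a reported LAG-3 ligand, had a log2 fold change of 3.01 (SE 0.55, adjusted p = 0.0291), from 14.6 ± 8.17 CPM (SD, n = 3) to 118 ± 42.6 CPM (SD, n = 4). Lgals9, the galectin-9 gene and the most abundant of the ligands per kilobase, was at 896 ± 131 CPM in SDLN and 390.1 ± 192 CPM in skin and did not pass (adjusted p = 0.106). The number of ligands that rose was 1 or 2 when any 1 library was left out, and 2 ligands fell without skin 1.

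Other coreceptors of the immunoglobulin and signalling-lymphocyte families moved both ways. Of 24 listed, 21 were tested, and 1 rose, 2 fell and 18 did not pass, a called share of 14.3% beside 7.24% of all tested genes. Cd200r1, the receptor of CD200, rose from 119.6 ± 19.2 CPM (SD, n = 3) to 367 ± 88.3 CPM (SD, n = 4), with a log2 fold change of 1.62 (edgeR adjusted p = 0.0246). Pecam1, the inhibitory adhesion receptor CD31, fell from 488 ± 87.4 to 40.8 ± 19.1 CPM (log2 fold change -3.58, adjusted p = 0.00856). Slamf6, a self-ligand of the SLAM family, fell from 477 ± 122 to 122 ± 43.6 CPM (log2 fold change -1.96, adjusted p = 0.0272). Cd2, an adhesion receptor and the most abundant of this list per kilobase, overlapped between tissues (2343 ± 607 and 1524 ± 585 CPM, adjusted p = 0.423). Coreceptors that rose numbered 0 to 1, and those that fell 0 to 3, with any 1 library left out; without SDLN 1 or SDLN 2 both were 0.

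Signalling partners of the receptors were mostly not called. Of 24 tested, 1 rose, 2 fell and 21 did not pass, a called share of 12.5% beside 7.24% of all tested genes. Grb2, an adaptor that binds the CD28 tail, rose with a log2 fold change of 1.78 (SE 0.43, edgeR adjusted p = 0.0443), from 34.9 ± 2.88 CPM (SD, n = 3) to 120.3 ± 48.2 CPM (SD, n = 4). Sh2d1a, the SLAM-associated adaptor SAP, fell with a log2 fold change of -2.21 (SE 0.48, adjusted p = 0.0380). Lck, the kinase that starts antigen receptor signalling and the most abundant of the list per kilobase, fell from 3814 ± 105 to 1749 ± 485 CPM (log2 fold change -1.12, adjusted p = 0.0406). With any 1 SDLN library left out, 0 genes of this list passed, and 0 rose without skin 2 or without skin 4; 2 rose without skin 1.

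Of 12 genes for CTLA-4 trafficking and LAG-3 shedding, 1 rose, 0 fell and 11 did not pass. The share called, 8.33%, was near the 7.24% of all tested genes. Beside the 0 lower calls of edgeR, 0 genes that were lower had an unadjusted p under 0.05, and DESeq2 and limma-voom also called 0. Rab11a, a recycling endosome GTPase, rose from 21.3 ± 3.23 CPM (SD, n = 3) to 96.8 ± 26.2 CPM (SD, n = 4), with a log2 fold change of 2.18 (edgeR adjusted p = 0.0354), and did not pass with any 1 SDLN library left out; 2 genes of this list rose without skin 1 and 2 without skin 3. Arf1, a vesicle GTPase and the most abundant of the list per kilobase, overlapped between tissues (311 ± 49.8 and 247 ± 32.8 CPM, adjusted p = 0.553).

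Transcription factors and other genes reported to regulate the coinhibitory receptors formed the last list, also chosen with earlier results known. Of 16 listed, 14 were tested: 6 rose, 1 fell and 7 did not pass. The share called was 50%, beside 7.24% of all tested genes, and is a description. The median log2 fold change of the 14 was 1.43 beside 0.05 over all tested genes. Id2, an inhibitor of E proteins, was the most abundant of the list per kilobase with all libraries pooled, though below Tcf7 in SDLN. Id2 was at 63.1, 75.8 and 128 CPM in SDLN and 872, 909, 805 and 1431 CPM in skin (log2 fold change 3.50, SE 0.38, edgeR adjusted p = 0.00470). Nfil3, a basic leucine zipper factor linked to TIM-3 induction, rose from 3.45 ± 2.47 CPM (SD, n = 3) to 129 ± 56.6 CPM (SD, n = 4), with a log2 fold change of 5.23 (adjusted p = 0.0110). Maf, known with Prdm1 for driving several inhibitory receptors, rose from 91.5 ± 34.1 to 760.0 ± 318 CPM (log2 fold change 3.05, adjusted p = 0.0116). Stat3, a cytokine signal transducer, rose from 158 ± 6.01 to 440.1 ± 40.3 CPM (log2 fold change 1.48, adjusted p = 0.0117). Prdm1 and Irf4 also rose (log2 fold change 3.02 and 2.25, adjusted p = 0.0327 and 0.0380), and Tcf7, a factor of naive and memory T cells, fell by 6.39 on the log2 scale (adjusted p = 0.0380). Leaving out SDLN 1, SDLN 2 or SDLN 3 left 1, 1 or 3 regulators higher in skin, and leaving out a skin library left 6 to 8; Tcf7 was not called without any 1 SDLN library or without skin 3.

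**Figure D5:**
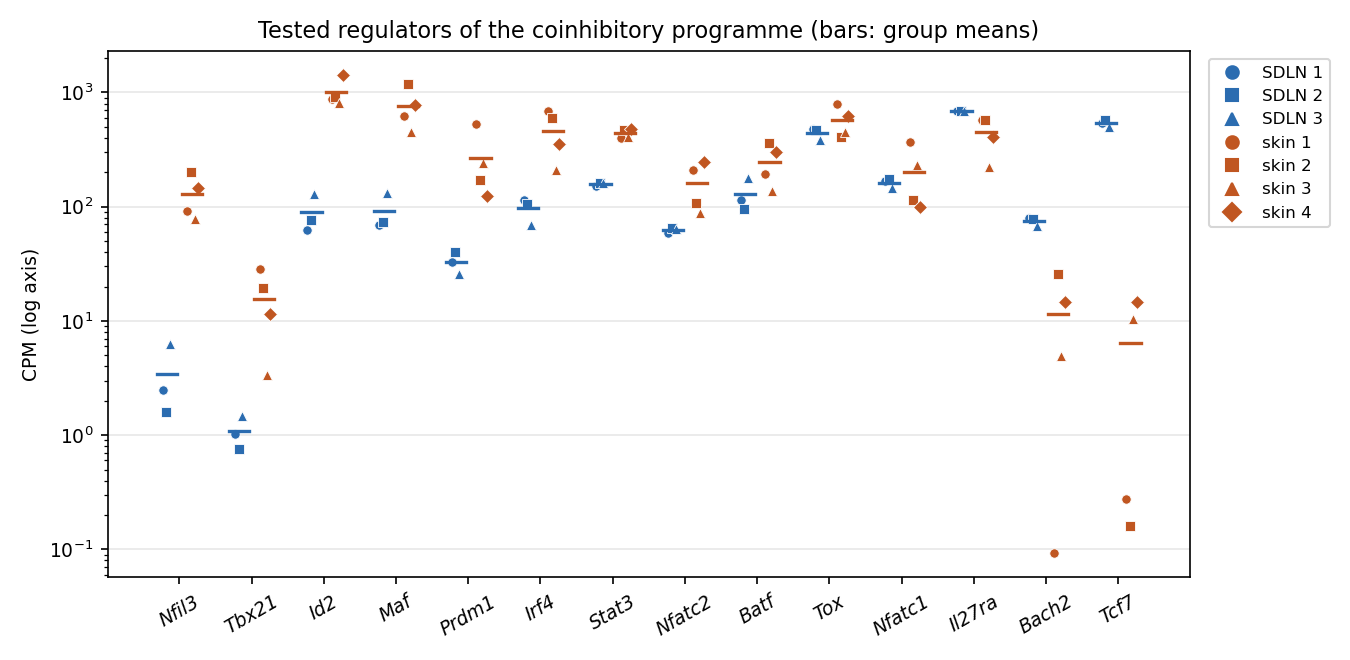
CPM (log axis) of the 14 tested regulators in the SDLN (blue) and skin (orange) libraries, ordered by log2 fold change, with bars at group means. Nfil3, Id2, Maf, Prdm1, Irf4 and Stat3 are higher in all 4 skin libraries, and Tcf7 is at 496.6 to 572 CPM in SDLN and 0.162 to 14.8 CPM in skin.

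The genes whose pattern over the 7 libraries was most like that of Ctla4 were Reps1, Aebp2, Rgs2, Zfp36 and Nr3c1. Their Pearson r of log2 CPM with Ctla4 was 0.994, 0.994, 0.993, 0.992 and 0.991, out of 7045 genes whose mean reached 20 CPM. The libraries fall into 2 tissues and share their depth, and the r is given as a description. Nr3c1, the glucocorticoid receptor gene, had an SDLN mean of 154 ± 4.86 CPM (SD, n = 3) and a skin mean of 685 CPM, and Zfp36, which encodes an RNA-binding protein that destabilises cytokine transcripts, means of 166 ± 17.8 and 1414 ± 532 CPM (SD, n = 3 and 4).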

How the data were processed

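Each deposited value is a raw count of reads for 1 gene symbol. HTSeq 0.6.1, SAMtools 0.1.19.0, Bowtie2 2.1.0.0, TopHat2 2.0.12, CASAVA 1.8.2 and build mm10 are listed, without roles, per the submitters' processing notes. Per the labels' protocols, column-purified RNA was amplified with SMARTer Ultra Low Input chemistry. For the annotation and strand setting, nothing is given in the sources used here; no member shares exon bases with another gene of the count table. The 5 summary lines were left out; 61.2 to 70.4% of all counts stood on the line for several alignments.

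Genes passing filterByExpr of edgeR 4.0.16 (R 4.3.3, minimum count 10) were scaled by TMM and tested with the robust quasi-likelihood test, two-sided, tissue as the sole term, Benjamini-Hochberg over all tested genes. SEs are the log2 fold change over the root of F, and 95% intervals use its degrees of freedom. Alternatives used DESeq2 1.42.0 and limma 3.58.1 (voom), other scalings and filters, a replicate block and each library left out. Named genes are all members and Cd226, and the 5 genes most like the first-ranked member. From each of 5 pathway lists, up to 4 called genes with the smallest adjusted p are named. The most abundant gene of each list per kilobase, with all libraries pooled, is named as well. Prdm1, Irf4 and Tcf7 were named after their values were seen. Positions and exon lengths come from GENCODE M21. The members and lists were chosen with earlier results of these data known.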

Additional observations from a re-analysis of the deposited data

Results flagged for a closer look

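Cd28 was at 2561 CPM in skin 1, far above the other 3 skin libraries, which lay between 796 and 1035 CPM. Cd226 was at 140 CPM in the same library, against 31.5 to 49.9 CPM in the other skin libraries. Both were noted because the gap to the nearest library exceeded 0.829 of the range of the 4 skin libraries. If values were normally distributed, chance alone would mark about 1 in 20 of the 11 genes looked at in this way. That form was not checked for CPM, and both marked values come from 1 library. Skin 1 is the library with the tissue tag that names the lymph node, and the part of that tag in these values was not tested.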

How the results depend on the processing

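Of 17 alternatives, all kept the sign of Ctla4, Icos, Tigit, Klrg1, Havcr2, Pdcd1, Cd96 and Btla, and Cd28 turned to -0.29 without skin 1 (-0.29 to 0.44 with any 1 library left out). Among alternatives, the log2 fold change ranged from 2.45 to 2.72 for Ctla4, 2.03 to 2.46 for Icos, 1.53 to 2.09 for Tigit, 2.55 to 3.44 for Klrg1, 3.43 to 3.96 for Havcr2, -1.58 to -1.2 for Pdcd1, -6.13 to -3.70 for Cd96, -2.34 to -0.86 for Btla, 0.0086 to 2.60 for Lag3 (16 alternatives, as the minimum mean of 5 CPM removes it) and -1.24 to -0.28 for Cd226. Members higher in skin numbered 0 to 5 with 1 library left out, and members lower 0 to 1 (Btla without skin 1, Cd96 without skin 2, Pdcd1 without skin 3). At an adjusted p under 0.01, 2 members (Ctla4 and Havcr2) were higher, with 72 genes higher and 16 lower over the table. The labels do not say whether equal numbers pair the libraries. The correlation of same-numbered deviations was 0.067, -0.002 and -0.040, which so few libraries cannot turn into an answer. With the replicate block on the 6 libraries numbered 1 to 3, 1 member (Havcr2) was higher, with 32 genes higher and 10 lower; with the replicate block on all 7, 2 members (Havcr2 and Klrg1), with 44 genes higher and 12 lower; under these blocks Cd96 was at -5.85 and -5.81. Genes numbered 373 higher and 451 lower as reported. They were 188 higher and 70 lower without the low-count filter, 100 lower at a mean of at least 5 CPM, 923 higher with DESeq2 and 729 lower with limma-voom. DESeq2 and limma-voom each called 2 members lower. With 1 library left out, genes ranged from 33 to 582 higher and 9 to 822 lower; the fit then had fewer libraries. Lag3 rested on 2 to 154 counts per library, with a coefficient of variation of 1.04 in skin.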

Other observations

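Several coreceptors, ligands and regulators outside the 10 separated the tissues without passing the test. Separation as such was common, as the libraries of the tissues did not overlap for 26.6% of all tested genes. Among tested genes of the lists, this held for 7 of 21 coreceptors, 4 of 14 ligands and 11 of 14 regulators. Cd160, a receptor for HVEM, had an SDLN mean of 34.3 ± 7.37 CPM (SD, n = 3) and a skin mean of 1.49 ± 2.72 CPM (SD, n = 4), and the groups did not overlap (edgeR adjusted p = 0.230). Cd200, the ligand of Cd200r1, was at 271 ± 25.7 and 32.8 ± 39.4 CPM, again without overlap (adjusted p = 0.275), while its receptor rose. Cd86, a ligand of CD28 and CTLA-4, was at 193, 159 and 209 CPM in SDLN and 1.0, 43.8, 88.6 and 44.6 CPM in skin (adjusted p = 0.337), and Cd80, the other of the pair, overlapped between tissues. Tbx21, the T-bet gene, was at 1.08 ± 0.358 and 15.7 ± 10.8 CPM with no overlap (adjusted p = 0.137). These genes were picked after their values were seen.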
